A study of Homo sapiens with 11 samples.

Results

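The Krüppel-like factors (KLFs) described here are 10 genes, KLF2, KLF3, KLF4, KLF5, KLF6, KLF7, KLF10, KLF11, KLF13 and KLF16, out of 45965 genes in the count table. They were taken by symbol, and each symbol stood on a single row. The set was put together with earlier results of these data in view, and KLF16 was singled out for its low level in the R175H R72 cells. What R72 did to these genes on R175H is therefore given as a description, without a test. The cells were H1299, a human lung carcinoma line without p53 of its own, into which a mutant p53 had been stably introduced. The groups compared were 3 R175H R72 and 3 R175H P72 libraries, and 1 R273H R72 and 4 R273H P72 libraries. R175H and R273H are hotspot mutations in the DNA-binding domain of p53, and R72 (arginine) and P72 (proline) are the forms of its codon 72 polymorphism. In all groups 5 µg of construct DNA was followed by 14 days in neomycin at 800 µg per ml. The labels say neither which promoter drove the construct nor whether a line was a clone or a pool, and cells without mutant p53 were not analysed here.

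KLFs are zinc-finger transcription factors that share a C-terminal DNA-binding domain with the SP proteins and bind GC-rich and CACCC-type elements. Their N-terminal parts differ. KLF10, KLF11, KLF13 and KLF16 can recruit the SIN3A corepressor, KLF3 represses through CtBP, and KLF2, KLF4, KLF5, KLF6 and KLF7 are mainly known as activators, although several of them can also repress. Many KLF mRNAs are short-lived and respond quickly to serum, TGF-β or stress, which is why the genes of those pathways are also given here.

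Messenger RNA was read by 3′ tag sequencing, at 8346926 to 12829560 estimated counts per library. Levels are given as CPM, the share of a library's counts scaled by the TMM method. Because 1 tag stands for 1 transcript end, a level does not depend on gene length. Batch b1 of the labels holds 4 libraries, namely R175H R72 replicate 1 and R273H P72 replicates 2 to 4, and batch b2 holds the other 7. Batch is therefore unevenly spread over the groups and was a term in the model. The labels do not say whether replicates were separate cultures, so a p-value reflects variation among libraries that could be purely technical. The mesenchymal markers VIM, CDH2, FN1, ZEB1 and SPARC summed to 1490 to 1860 CPM in R175H R72, 1650 to 2040 in R175H P72, 1600 in R273H R72 and 1040 to 1360 in R273H P72. VIM alone lay at 738 to 1810 CPM, and SPARC did not exceed 1.27 CPM. Of the epithelial list, KRT8 and KRT18 lay at 236 to 297 and 662 to 1020 CPM. Its other genes were low, with CDH1, EPCAM and KRT19 at no more than 0.12, 0.702 and 0.359 CPM and KRT7 at 1.15 to 2.78 CPM. The fibroblast, endothelial, leukocyte, squamous and neuroendocrine lists each summed to at most 6.43 CPM. Of those 5 lists, COL1A2, LUM, CDH5, CLDN5, CD3E, KRT5, KRT14, KRT6A, CHGA and INSM1 had no count.

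KLF16 (ENSG00000129911) lies on the minus strand of chromosome 19 at 1852399 to 1863568 (hg38). Promoter sequences are shown because KLF and SP proteins bind GC boxes, which KLF genes can themselves carry, and because the results below turn on the members shown. The RefSeq promoter table (GRCh38.p14) covers 250 bases before to 50 bases after a start site and held 8 of the 10 members. The windows are given 5′ to 3′ on the strand of the gene, chr19:1863530-1863829 (minus) for KLF16, chr19:16324576-16324875 (plus) for KLF2, chr10:3785160-3785459 (minus) for KLF6 and chr9:107489720-107490019 (minus) for KLF4, with each GC box (GGGCGG on either strand) in capitals.
KLF16: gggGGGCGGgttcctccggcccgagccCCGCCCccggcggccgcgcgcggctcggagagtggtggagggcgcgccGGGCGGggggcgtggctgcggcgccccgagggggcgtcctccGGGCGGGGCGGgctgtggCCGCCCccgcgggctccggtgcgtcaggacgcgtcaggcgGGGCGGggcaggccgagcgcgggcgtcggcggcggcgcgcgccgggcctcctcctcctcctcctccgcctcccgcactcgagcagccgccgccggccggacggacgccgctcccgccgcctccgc
KLF2: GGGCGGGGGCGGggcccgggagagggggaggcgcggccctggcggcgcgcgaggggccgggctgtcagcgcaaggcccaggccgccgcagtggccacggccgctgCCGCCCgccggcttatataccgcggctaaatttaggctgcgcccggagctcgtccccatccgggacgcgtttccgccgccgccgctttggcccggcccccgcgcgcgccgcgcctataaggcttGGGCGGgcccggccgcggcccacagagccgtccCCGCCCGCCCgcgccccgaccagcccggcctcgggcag
KLF6: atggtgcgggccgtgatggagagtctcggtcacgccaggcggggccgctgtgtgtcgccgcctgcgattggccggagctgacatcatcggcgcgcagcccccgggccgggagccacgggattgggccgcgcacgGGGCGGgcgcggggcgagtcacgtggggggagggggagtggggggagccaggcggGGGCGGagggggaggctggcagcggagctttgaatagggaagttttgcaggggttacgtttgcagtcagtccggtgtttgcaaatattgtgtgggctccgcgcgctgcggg
KLF4: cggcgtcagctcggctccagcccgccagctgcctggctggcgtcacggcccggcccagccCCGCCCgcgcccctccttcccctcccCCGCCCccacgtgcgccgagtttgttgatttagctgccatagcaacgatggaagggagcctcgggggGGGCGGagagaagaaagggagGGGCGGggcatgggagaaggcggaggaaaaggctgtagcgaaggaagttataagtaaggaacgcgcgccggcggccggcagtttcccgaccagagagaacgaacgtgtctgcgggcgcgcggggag
The KLF16 window held 7 GC boxes, the KLF2 window 6, the KLF4 window 4 and the KLF6 window 2. A GC box was present in 6 of the 8 member windows and in 45.0% of 35116 promoters of the same length. The CACCC box (CACCC on either strand), present in 59.9% of promoters, was found in 3 of the 8, those of KLF5, KLF7 and KLF13. Each motif was counted on its own, so that hits may overlap. GC content was highest in the KLF16 window at 86.0% and lowest in the KLF5 window at 40.7%, with a median of 58.7% over all promoters. The AP-1 element (TGANTCA on either strand) and the CArG box of serum response factor, present in 7.71% and 1.29% of promoters, were not in the 8 windows. These matches describe the letters only.

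KLF16, a repressor that recruits SIN3A and was first described in mouse as a regulator of dopamine receptor genes, was lower in the R175H R72 cells than in any R175H P72 library. It measured 18.99, 10.9 and 9.60 CPM in R175H R72 replicates 1, 2 and 4, against 33.7, 37.7 and 34.7 CPM in R175H P72 replicates 1, 2 and 4. The groups did not overlap, and the R175H R72 library of batch b1, replicate 1, stood above those of batch b2. The means were 13.2 ± 5.1 CPM in R175H R72 and 35.4 ± 2.1 CPM in R175H P72 (SD, n = 3 each), a log2 fold change of -1.58 (SE 0.17), or 3.00-fold lower with R72. In bulk RNA, fewer cells with the transcript and less of it per cell cannot be told apart. Within batch b2 alone the log2 fold change was -1.78.

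The last 500 nt of KLF16 transcripts have a GC content of 67.8%, above that of 99.6% of the tested genes, and libraries differed in how tag counts followed GC content. Per 10 percentage points of GC, log2 CPM changed by 0.071, -0.085 and -0.052 in R175H R72 replicates 1, 2 and 4, against 0.005, 0.026 and 0.021 in R175H P72 replicates 1, 2 and 4, and by -0.080 in the R273H R72 library. After a correction for that trend in each library the R175H log2 fold change of KLF16 was -1.28, and over all alternatives it lay between -1.78 and -1.28. The 3′ ends of the other 9 members have a GC content of 29.4% to 56.2%.

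In the R273H groups the mean of KLF16 stood between those of the R175H groups. It measured 16.2 CPM in the R273H R72 library (95% exact binomial interval 13.9 to 18.8, counting error only), and 22.3, 18.8, 26.0 and 23.8 CPM in R273H P72 replicates 1 to 4. From high to low the order was R175H P72, R273H P72, R273H R72 and R175H R72. R175H P72 lay above every other library, while the R273H R72 library lay inside the range of R175H R72, and the highest R175H R72 library reached above the lowest of R273H P72.

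**Figure D1:**
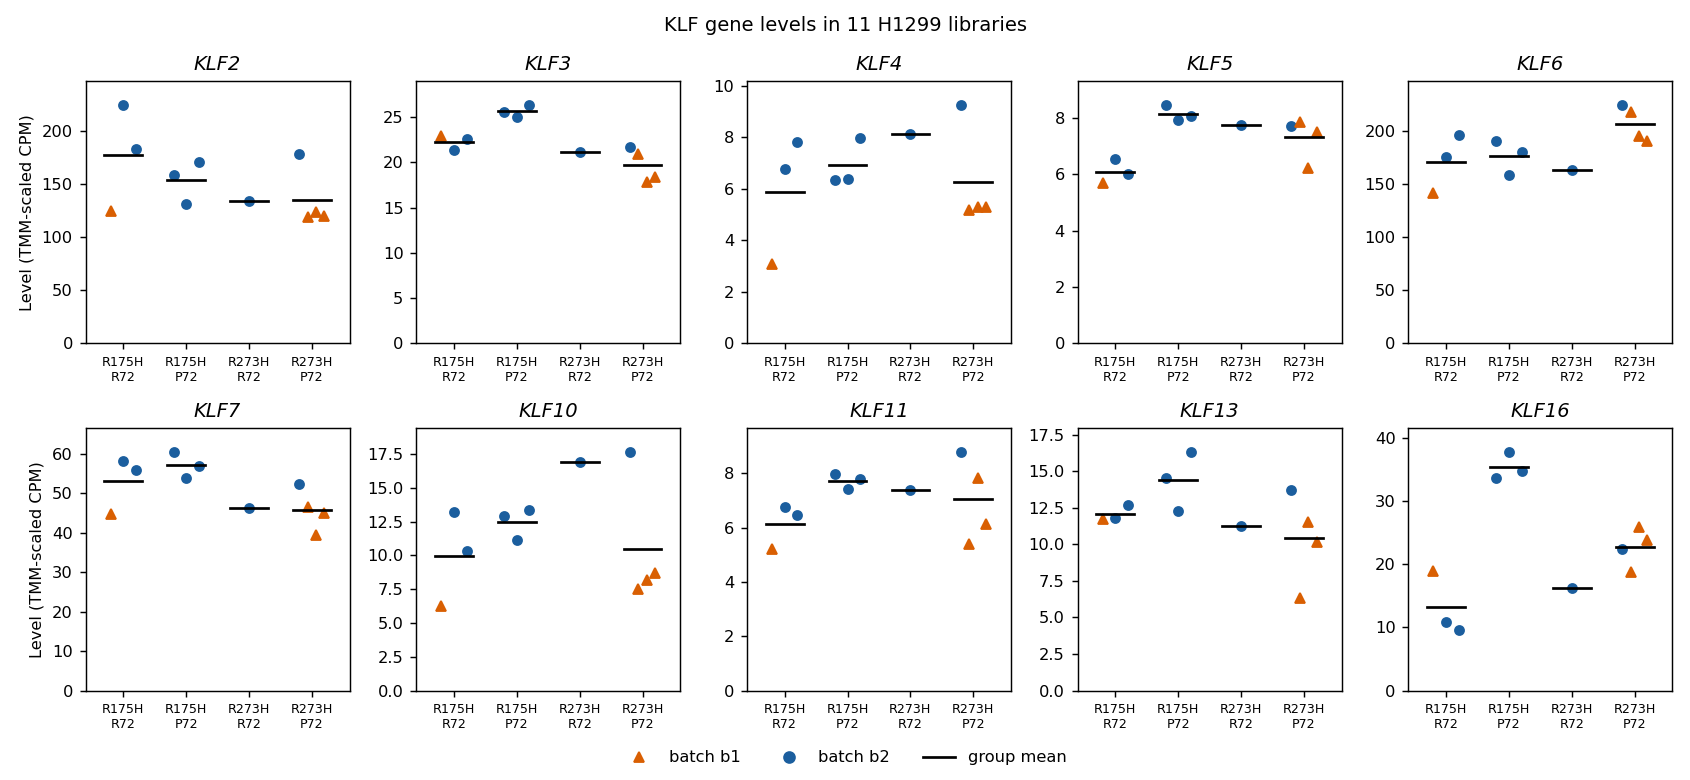
Level of each KLF gene in every library (CPM on a linear axis from 0; points are libraries, coloured by batch; short lines are group means; groups run R175H R72, R175H P72, R273H R72 and R273H P72). KLF16 lies at 9.60 to 18.99 CPM in R175H R72 and at 33.7 to 37.7 CPM in R175H P72, and KLF2, KLF4 and KLF10 separate by batch.

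Apart from KLF16, the SIN3A-recruiting members had log2 fold changes between -0.20 and -0.04 with R72 on R175H. KLF10, an early TGF-β response gene, measured 6.29, 13.2 and 10.3 CPM in R175H R72, against 12.9, 11.2 and 13.4 CPM in R175H P72, and its log2 fold change was -0.04 (SE 0.16). KLF11, also inducible by TGF-β, measured 5.22, 6.76 and 6.48 CPM in R175H R72, against 7.96, 7.41 and 7.80 CPM in R175H P72, with a log2 fold change of -0.20 (SE 0.19). KLF11 did not overlap between the groups, whereas KLF10 did. KLF13, known for driving CCL5 in T cells, measured 11.8, 11.8 and 12.7 CPM in R175H R72, against 14.5, 12.3 and 16.3 CPM in R175H P72, with overlap, and had a log2 fold change of -0.14 (SE 0.19).

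Among the activators KLF2, a gene of endothelial and T-cell quiescence, had the highest log2 fold change with R72. It measured 124, 224 and 183 CPM in R175H R72, against 159, 132 and 171 CPM in R175H P72. The lowest and the 2 highest of these libraries were all R175H R72, and the lowest was the one of batch b1. With batch in the model the log2 fold change was 0.38 (SE 0.10). KLF5, a factor of proliferating epithelium, measured 5.70, 6.55 and 6.002 CPM in R175H R72, against 8.47, 7.92 and 8.07 CPM in R175H P72, and its log2 fold change was -0.38 (SE 0.18). All R175H R72 libraries were below all R175H P72 libraries.

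The other activators overlapped between the codon 72 forms on R175H. KLF4, a reprogramming factor, measured 3.08, 6.76 and 7.80 CPM in R175H R72, against 6.35, 6.39 and 7.98 CPM in R175H P72, with a log2 fold change of 0.01 (SE 0.20). KLF6, a gene of tissue injury and growth arrest, measured 141, 176 and 196 CPM in R175H R72, against 190, 159 and 180 CPM in R175H P72, with a log2 fold change of 0.04 (SE 0.09). KLF7, a gene of neuronal development, measured 44.9, 58.3 and 55.9 CPM in R175H R72, against 60.5, 53.9 and 57.0 CPM in R175H P72, with a log2 fold change of -0.01 (SE 0.09). In all 3 genes the lowest of the 6 libraries was R175H R72 replicate 1, of batch b1.

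KLF3, the CtBP-dependent repressor, measured 22.9, 21.4 and 22.6 CPM in R175H R72, against 25.6, 25.1 and 26.3 CPM in R175H P72, again without overlap, and its log2 fold change was -0.18 (SE 0.12). In all, 4 of the 10 members (KLF3, KLF5, KLF11 and KLF16) were lower in every R175H R72 library and 0 were higher in every one, where 6.15% and 6.81% of all tested genes were so. The log2 fold change was below 0 for 7 of 10 members, with a median of -0.09 over the members and -0.00 over all 16324 genes tested, of which 1.13% passed edgeR's test, 0.319% as higher and 0.815% as lower. Nothing is read from these counts, because this comparison chose the set. KLF3 and KLF11 share 266 and 416 exon bases with the antisense genes KLF3-AS1 and AC104794.4, which had 128 and 11 counts in total. KLF16 shares 483 with AC012615.3, which had 0. The sources do not state if reads were counted by strand.

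**Figure D2:**
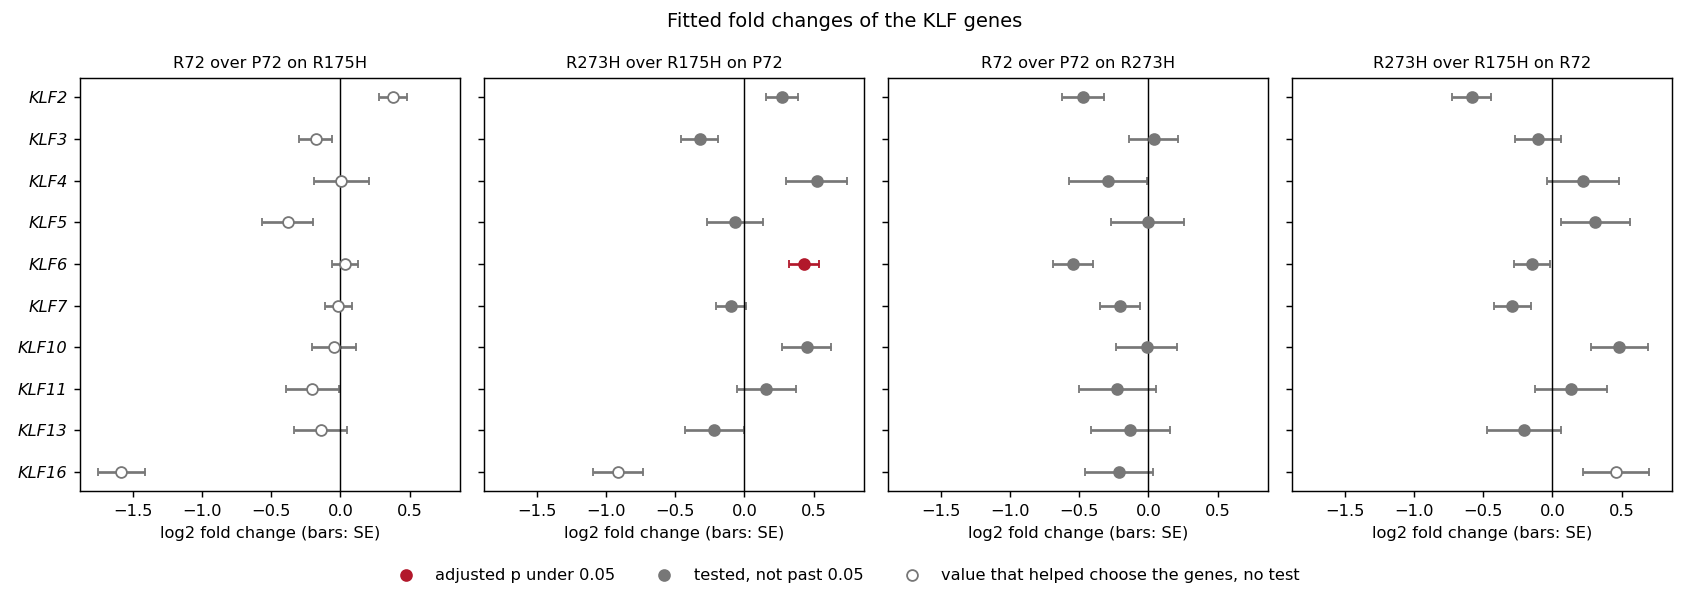
Log2 fold change of each KLF gene with its SE (bars) in the 4 comparisons of the design, from the edgeR fit with batch (open points were used in choosing the set and have no test, red marks an adjusted p under 0.05). KLF16 is the lowest point for R72 over P72 on R175H, at -1.58, and for R273H over R175H on P72, at -0.91.

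On R273H the codon 72 comparison rests on 1 R72 library, which is assumed to vary like the others, and the libraries compared are not those that chose the set, although the batch term is estimated from all 11 libraries, the R175H ones included. No member passed the test (edgeR quasi-likelihood, Benjamini-Hochberg over 16324 genes). The call rate over all genes was 0.0% by edgeR, 0.0123% by limma-voom, which called 0 members, and 0.686% by DESeq2, which called 1. An unadjusted p under 0.05 was reached by 2 members and by 7.75% of all genes with edgeR. KLF6 measured 163 CPM in the R273H R72 library (95% exact binomial interval 155 to 171), against 225, 218, 195 and 190 CPM in R273H P72. It lay below all 4, and its log2 fold change of -0.54 (SE 0.14) had an adjusted p of 0.237 by edgeR and 0.0259 by DESeq2. KLF2 measured 134 CPM in R273H R72 (interval 127 to 141), against 178, 119, 124 and 120 CPM in R273H P72, with a log2 fold change of -0.47 (SE 0.15, edgeR adjusted p = 0.359). That library stood above the P72 libraries of batch b1 and below the P72 library of its own batch.

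KLF16 had a log2 fold change of -0.21 (SE 0.24) with R72 on R273H, and an edgeR adjusted p of 0.899. Its R72 library was below all 4 P72 libraries, but the value was 0.38 without R273H P72 replicate 1, the library of batch b2 in that group. It was -0.46 both in batch b2 alone and without R175H R72 replicate 1. Those fits are not separate checks, because both in effect set the R273H R72 library against R273H P72 replicate 1 alone. KLF10 measured 16.9 CPM in R273H R72, against 17.6, 7.51, 8.19 and 8.67 CPM in R273H P72, close to the P72 library of its batch. The log2 fold changes of KLF3, KLF5, KLF10 and KLF13 were between -0.13 and 0.04 and changed sign under some alternatives, and those of KLF4, KLF7 and KLF11 were -0.29, -0.21 and -0.22. In all, 9 of 10 values were below 0 with batch in the model, with a median of -0.21 over the members and 0.00 over all genes. That count depended on the batch term, since the R72 library is of b2 and R273H P72 replicates 2 to 4 are of b1. Without the term, KLF4, KLF5, KLF7, KLF10, KLF11 and KLF13 were above 0, from 0.0127 for KLF7 to 0.66 for KLF10. KLF2, KLF6 and KLF16 stayed below 0. The R72 effect on R273H minus that on R175H was 1.37 (SE 0.32) for KLF16 and -0.85 (SE 0.20) for KLF2 on the log2 scale, given without a test because the R175H comparison chose the set.

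Between the hotspots on P72, KLF6 rose in the R273H cells. It measured 225, 218, 195 and 190 CPM in R273H P72 replicates 1 to 4, against 190, 159 and 180 CPM in R175H P72 replicates 1, 2 and 4. The means were 207 ± 17 CPM (SD, n = 4) in R273H P72 and 177 ± 16 CPM (SD, n = 3) in R175H P72, and the ranges met at 190 CPM. With batch in the model the log2 fold change was 0.43 (SE 0.11), 1.35-fold higher (edgeR adjusted p = 0.00954). It was called in 17 of 21 alternatives, and the exceptions were the fit without a batch term (0.23, adjusted p = 0.170), batch b2 alone (0.35, adjusted p = 0.117), the fit without R175H P72 replicate 2 (0.36, adjusted p = 0.0508) and that without R175H R72 replicate 1 (0.35, adjusted p = 0.0792). The fits in batch b2 alone and without R175H R72 replicate 1 are not separate checks, because in both only R273H P72 replicate 1 in effect stands for its group. KLF6 was the only one of the 9 tested members to pass, where 14.6% of all genes passed (6.95% as higher and 7.6% as lower), so the share of members called is close to that of all genes. An unadjusted p under 0.05 was reached by 5 members and by 27.8% of all genes. DESeq2 and limma-voom each called 1 member, against 13.1% and 15.7% of all genes.

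KLF16 was not tested in this comparison because the R175H P72 libraries took part in choosing it. Those libraries also belong to the comparison that chose the set. The tests of KLF6 and the other members here are therefore not independent of that choice. It measured 22.3, 18.8, 26.0 and 23.8 CPM in R273H P72, against 33.7, 37.7 and 34.7 CPM in R175H P72. The groups did not overlap, and the log2 fold change was -0.91 (SE 0.18), or 1.88-fold lower with R273H. The value depended on the setting, at -0.56 after the GC correction, -0.67 in batch b2 alone, -0.64 without a batch term and -1.51 without R273H P72 replicate 1. R273H P72 replicates 1 to 4 had GC slopes of -0.056, 0.043, 0.058 and 0.049 per 10 percentage points.

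KLF10, KLF4 and KLF2 had log2 fold changes of 0.45 (SE 0.17), 0.52 (SE 0.22) and 0.27 (SE 0.12) with R273H on P72, at edgeR adjusted p of 0.0882, 0.117 and 0.130. Each of these 3 changed sign without the batch term, to -0.22, -0.12 and -0.18. KLF4 measured 9.26, 5.16, 5.31 and 5.29 CPM in R273H P72, against 6.35, 6.39 and 7.98 CPM in R175H P72, so that only the batch b2 library of R273H P72 was above the R175H P72 libraries. KLF3 measured 21.7, 20.9, 17.9 and 18.4 CPM in R273H P72, against 25.6, 25.1 and 26.3 CPM in R175H P72, and its log2 fold change was -0.32 (SE 0.13, edgeR adjusted p = 0.116). Without a batch term it was -0.38 (adjusted p = 0.0290), and KLF3 was then the single member called, in place of KLF6. Leaving KLF16 aside, 3 of 9 members (KLF3, KLF5 and KLF7) were lower in every R273H P72 library, where 14.1% of all genes were, and 0 were higher in every one, where 14.0% were. These ranges take no account of batch, although 3 of the 4 R273H P72 libraries are of b1, where KLF7 was lower, and its value in the model was -0.10. KLF5, KLF7, KLF11 and KLF13 had log2 fold changes of -0.07, -0.10, 0.16 and -0.22, with adjusted p from 0.555 to 0.870 by edgeR.

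On R72 the hotspots were compared with 1 R273H library against 3 of R175H. No tested member passed edgeR's test, where 0.0429% of all genes did, 0.00613% as higher and 0.0368% as lower. An unadjusted p under 0.05 was reached by 3 of 9 members and by 4.62% of all genes. DESeq2 and limma-voom called 0 members, against 0.0858% and 0.0245% of all genes. KLF2 measured 134 CPM in R273H R72, against 124, 224 and 183 CPM in R175H R72, and its log2 fold change was -0.58 (SE 0.14, edgeR adjusted p = 0.619). It lay between the batch b1 library and the batch b2 libraries of R175H R72. KLF10 measured 16.9 CPM in R273H R72 (95% exact binomial interval 14.5 to 19.5), against 6.29, 13.2 and 10.3 CPM in R175H R72, above all 3, with a log2 fold change of 0.48 (SE 0.21, edgeR adjusted p = 1.0). KLF16, which was chosen on these R175H R72 libraries, had 0.46 (SE 0.24) and no test, and the other members lay between -0.29 and 0.31.

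Read as a comparison of its own, the batch term of the same fit separated several members. KLF2, KLF4, KLF7 and KLF10 were lower in batch b1 than in batch b2, which is 4 of 10, where 5.61% of all genes were called lower, 3.6% higher and 9.21% in either direction. DESeq2 called 3 and limma-voom 4, against 9.06% and 9.36% of all genes. By edgeR 7 of 10 had an unadjusted p under 0.05, as did 22.4% of all genes. KLF10 lay at 6.29 to 8.67 CPM in the 4 libraries of b1 and at 10.3 to 17.6 CPM, with a median of 13.2, in the 7 of b2, and fell by 1.04 on the log2 scale (SE 0.16, edgeR adjusted p = 0.000332). KLF4 lay at 3.08 to 5.31 CPM in b1 and 6.35 to 9.26 CPM in b2 (median 7.80), and fell by 0.97 (SE 0.20, edgeR adjusted p = 0.00334). KLF2 lay at 119 to 124 CPM in b1 and 132 to 224 CPM in b2 (median 171), and fell by 0.63 (SE 0.10, edgeR adjusted p = 0.000527). For these 3 genes every library of b1 was below every library of b2, as was the case for 5.27% of all genes. Only R175H R72 and R273H P72 have libraries in both batches, so the other groups cannot show this.

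KLF7 lay at 39.5 to 46.5 CPM in b1 and 46.3 to 60.5 CPM in b2, with a log2 fold change of -0.30 (SE 0.09, edgeR adjusted p = 0.0453) that missed the threshold in 9 of 19 alternatives. Without R175H R72 replicate 1 or without R273H P72 replicate 1, 2 members were called. They were KLF2 and KLF10 without the first library, and KLF2 as lower and KLF16 as higher in b1 without the second. KLF4 was not called in either, at log2 fold changes of -0.82 and -1.24 (edgeR adjusted p = 0.0798 and 0.0577). KLF10 was not called in the second, at -0.92 (edgeR adjusted p = 0.0741). Of all genes, 2.72% and 1.67% were called in these fits, against 9.21% in the main fit. Over the 10 members 9 values were below 0, with a median of -0.32, against 0.02 over all genes. KLF6 and KLF11 had -0.27 and -0.40, at edgeR adjusted p of 0.0757 and 0.202. KLF16 had a value above 0, at 0.38 (SE 0.16, edgeR adjusted p = 0.158), and lay at 18.8 to 26.0 CPM in b1 and 9.60 to 37.7 CPM in b2. That value rested on single libraries. It was 0.03 without R175H R72 replicate 1, 0.88 without R273H P72 replicate 1 (adjusted p = 0.0353) and 0.47 without R273H P72 replicate 2 (adjusted p = 0.0477), and 0.07 after the GC correction. The labels do not say what set the batches apart.

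**Figure D3:**
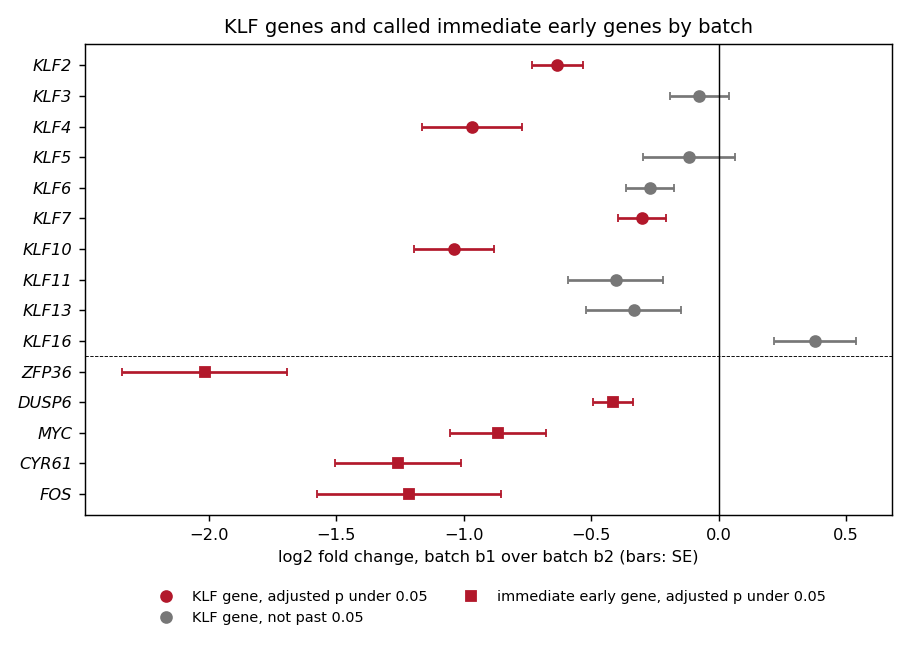
Log2 fold change of batch b1 over b2, with its SE (bars), for each KLF gene (circles, red where the adjusted p was under 0.05 and grey where not) and for the 5 called immediate early genes (squares), from the fit over all 11 libraries. KLF10, KLF4, KLF2 and KLF7 are called and lie at -1.04, -0.97, -0.63 and -0.30, and KLF16 lies at 0.38.

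The genes around KLF16 did not show a change of its size with R72 on R175H. Of its 10 nearest tested genes, REXO1, at a distance of 3936 bases, CTB-31O20.2, ABHD17A, ATP8B3, SCAMP4, ONECUT3, CSNK1G2, BTBD2, Metazoa_SRP and MKNK2, none was called by edgeR, and their log2 fold changes lay between -0.62 and 0.17, with 8 below 0 and a median of -0.17. An unadjusted p under 0.05 was reached by 0, against 13.6% of all genes, and DESeq2 and limma-voom called 0 as well. Of all genes, edgeR called 1.13%, DESeq2 2.04% and limma-voom 1.18%, so 0 calls among 10 genes is close to these shares. With R273H on P72, MKNK2, which encodes a kinase of the translation factor eIF4E, fell by 0.87 (SE 0.11, edgeR adjusted p = 6.35e-05), and the other 9 were not called. That is 1 of 10, close to the 14.6% of all genes called in that comparison.

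The genes most like KLF16 over the libraries had GC-rich 3′ ends. Among 8967 other genes averaging 10 CPM or more, the highest Pearson correlations of log2 CPM over the 11 libraries were those of ALKBH7 (r = 0.97), RPL18 (0.97), ATP5D (0.95), ATG4D (0.95), MRPS34 (0.94), C12orf57 (0.94), UBE2M (0.93) and NDUFA13 (0.93). RPL18, a protein of the large ribosomal subunit, averaged 71.2 CPM in R175H R72, 149 in R175H P72, 68.5 in R273H R72 and 97.0 in R273H P72, highest in R175H P72 as KLF16 was. ATG4D, an autophagy protease, averaged 8.11 CPM in R175H R72, 27.6 in R175H P72, 10.3 in R273H R72 and 15.7 in R273H P72. Of the 8 genes, 6 lie on chromosome 19, and the 3′ ends of the 8 have a GC content of 55.9% to 64.8% (median 60.2%), where the median of all tested genes is 46.2%. The share of chromosome 19 among all candidate genes was not worked out, so nothing is read from that count. The points share libraries, depth and this base composition, and the correlations are descriptions. No KLF gene was among the 8, and KLF2, KLF3, KLF6, KLF7, KLF10 and KLF13 had r of -0.40, 0.33, -0.05, -0.02, 0.03 and 0.27 with KLF16. The members KLF4, KLF5 and KLF11 averaged below 10 CPM, so they were not candidates and could not be among the 8.

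**Figure D4:**
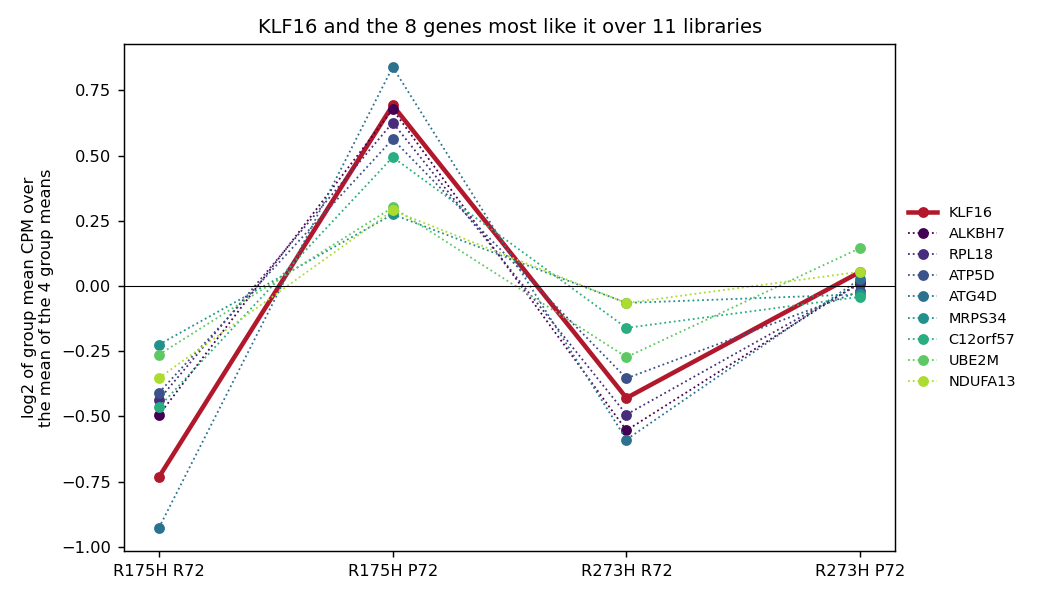
Mean CPM of each group over the mean of the 4 group means, on a log2 scale, for KLF16 (solid line) and the 8 genes most correlated with it (dotted lines, which join groups only to guide the eye). KLF16 and the 8 genes are highest in R175H P72, and lowest in R175H R72 for KLF16, whose group means are 13.2 and 35.4 CPM in R175H R72 and R175H P72.

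Outside the 10 members, the table held 7 further KLF genes. KLF9, KLF12 and KLF14 were high enough to be tested and were not called in any comparison, with log2 fold changes of -0.08, -0.08 and -0.03 for R72 on R175H. KLF8, KLF15, KLF17 and KLF1 had 27, 10, 7 and 1 counts over all libraries. The surrounding pathways were followed through 7 lists holding 93 distinct tested genes, which were written knowing earlier results of these data.

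With R72 on R175H, 0 of the 93 were called by edgeR, against 1.13% of all genes, and 16 had an unadjusted p under 0.05, against 13.6% of all genes. DESeq2 called 2, against 2.04% of all genes, and limma-voom 1, against 1.18%. With R72 on R273H, 0 were called by edgeR, as of all genes, and 12 had an unadjusted p under 0.05, against 7.75% of all genes. DESeq2 called 5, against 0.686% of all genes, and limma-voom 0, against 0.0123%. Between the hotspots on R72, 0 were called by all 3 tools, with 10 at an unadjusted p under 0.05 by edgeR, against 4.62% of all genes. Of all genes, edgeR, DESeq2 and limma-voom called 0.0429%, 0.0858% and 0.0245% there. List medians for R72 on R175H lay between -0.21 for the SP family and 0.14 for reported KLF targets.

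Between the hotspots on P72, 16 of the 93 list genes were called, where 14.6% of all genes were, and 7 in batch b2 alone, where 5.38% of all genes were. Both counts are close to the share over all genes. That share was 6.95% for higher and 7.6% for lower, and the counts of the single lists below are to be read against it. Of 22 immediate early genes, 5 were higher and 1 lower in R273H P72, with a list median of 0.25, against 0.00 over all genes. CYR61, a matricellular gene of the serum response, measured 1826, 1052, 853 and 974 CPM in R273H P72, against 725, 434 and 704 CPM in R175H P72, and rose by 1.81 on the log2 scale (SE 0.28, edgeR adjusted p = 0.00651), a call that was lost without the batch term. ANKRD1 and FOSL2 rose by 1.19 and 0.66, and DUSP1, an early phosphatase of MAP kinases, fell by 0.96 (edgeR adjusted p = 0.00635, 0.00388 and 0.00257). FOSL2 and DUSP1 missed the threshold in batch b2 alone (adjusted p = 0.0507 and 0.0563).

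Of 20 genes reported elsewhere as KLF targets, 3 were higher and 1 lower in R273H P72, with a median of -0.02. DNMT1, the maintenance methyltransferase, rose by 0.64 and THBS1, thrombospondin, by 0.74, and CDKN1C, a cyclin kinase inhibitor, fell by 1.68 (edgeR adjusted p = 0.000187, 0.00759 and 0.00689). DNMT1 missed the threshold without the batch term, and THBS1 and CDKN1C missed it in batch b2 alone, among others. In the TGF-β list of 16, 1 gene was higher and 1 lower, with a median of -0.04. SMAD2, a signal transducer of the TGF-β receptors, fell by 0.32 (edgeR adjusted p = 0.0416) and was called in 9 of 21 alternatives.

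In the ERK5 and MEF2 list of 8, a kinase pathway known to induce KLF2 and KLF4 in endothelium, MAP2K5 and MAP3K3 fell by 0.68 and 0.42 (edgeR adjusted p = 0.00284 and 0.0265), with a median of -0.26. Both missed the threshold in batch b2 alone (adjusted p = 0.0720 and 0.205). MAP2K5 was called in 20 of 21 alternatives, and MAP3K3 in 14, with losses also without the batch term and after the GC correction. Among 20 cofactors and ubiquitin ligases 0 were higher and 1 lower, with a median of -0.10. Among 6 SP genes SP2 fell by 0.63 (edgeR adjusted p = 0.00875), with a median of -0.14, and it missed the threshold in batch b2 alone (adjusted p = 0.0678).

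Between batches, 11 of the 93 were called, where 9.21% of all genes were. Of 22 immediate early genes 0 were higher and 5 lower in b1, where 3.6% and 5.61% of all genes were, with a median of -0.27, against 0.02 over all genes. ZFP36, an mRNA-decay factor induced by serum, fell by 2.02, MYC by 0.87, DUSP6 by 0.41, CYR61 by 1.26 and FOS by 1.22 in b1 (edgeR adjusted p = 0.000626, 0.00946, 0.00217, 0.0234 and 0.0368). ZFP36 measured 1.66 CPM in R175H R72 replicate 1 and 1.06, 0.807 and 1.48 CPM in R273H P72 replicates 2 to 4, the b1 libraries. In the b2 libraries it measured 6.96 and 4.44 CPM in R175H R72, 2.92, 2.98 and 5.50 CPM in R175H P72, 4.29 CPM in R273H R72 and 5.13 CPM in R273H P72. The lowest library of b2 was above the highest of b1, as for KLF2, KLF4 and KLF10. Without R273H P72 replicate 1, ZFP36, MYC, CYR61 and FOS were no longer called, and without R175H R72 replicate 1, DUSP6, MYC, CYR61 and FOS were not. Of all genes, 1.67% were called without the first of these libraries and 2.72% without the second. DNMT1, of the reported KLF targets, fell by 0.58 in b1 (SE 0.08, edgeR adjusted p = 0.000211) and was called in all 19 alternatives.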

How the data were processed

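RNA of H1299 lines was sequenced as Lexogen QuantSeq 3′ libraries with single 75 bp reads, per the labels' protocols. The authors deposited 1 table of estimated counts per Ensembl gene. They were whole numbers and were used as such. Per the submitters' processing notes, the tools were Bowtie2, RSEM 1.2.12 and DESeq2 on genome build hg38, with no order or role given. The annotation behind the counts and any use of strand are not stated there.

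Titles tied columns to libraries, and the labels gave mutant, codon 72 form and batch. The filterByExpr step (minimum count 10, minimum total 15) kept 16324 genes, among them all 10 members. After TMM scaling (factors 0.979 to 1.03) a robust quasi-likelihood model of group and batch was fitted to all 11 libraries in edgeR 4.0.16 (R 4.3.3). Benjamini-Hochberg adjustment ran over the 16324 genes, and an adjusted p under 0.05 counted as called. SEs are on the log2 scale. Gene positions are those of GENCODE 29 (hg38), in which 42551 of the gene IDs were found.

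The members and lists were chosen with earlier results of these data known. KLF16 was left out of counts of called members between hotspots, because the libraries that chose it take part there. The other members were tested there, although the R175H libraries also belong to the comparison that chose the set. Those tests are not independent of the choice. The text names all 10 members, up to 4 called genes with the smallest p from each list and comparison, the 10 tested neighbours of KLF16 and the 8 genes with a mean of 10 CPM or more most correlated with it (log2 CPM, prior count 2). A further gene in a list, FOS, is named to complete a count and was chosen after its values were seen. Some genes that this rule took are not reported here.

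Each result was recomputed with RLE scaling, with library totals as the scale, with all genes kept, with a stricter filter (3 or more libraries at 10 CPM or above), with DESeq2 1.42.0, with limma-voom (limma 3.58.1), with batch dropped from the model, with a replicate block, without each library, within batch b2, and with a GC correction. In that correction, GC content over the final 500 nt of the transcripts was related to each library's log2 CPM relative to the mean by a natural spline (5 degrees of freedom), whose values became offsets, and 16027 tested genes had a GC value. The code was tested on simulated counts. A batch comparison was added after seeing the data, as were the alternatives for the lists and neighbours.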

Additional observations from a re-analysis of the deposited data

Results flagged for a closer look

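In R273H P72, replicate 1 stood apart from the other 3 libraries for 3 of the 10 members, by the gap to the nearest library divided by the range of log2 CPM. The ratio was 0.893 for KLF2, 0.953 for KLF4 and 0.833 for KLF10. All 3 were higher in replicate 1, at 178, 9.26 and 17.6 CPM, against 119 to 124, 5.16 to 5.31 and 7.51 to 8.67 CPM in replicates 2 to 4. Chance marks about 1 in 20 groups, and 10 groups were looked at, 1 per member. The library is the single one of batch b2 in its group, and these 3 genes are those that did not overlap between batches.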

How the results depend on the processing

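The log2 fold change of KLF16 with R72 on R175H lay between -1.78 and -1.28 over all alternatives, and between -1.78 and -1.42 with each library left out. The number of members below 0 there was 7, and 6 to 9 with a library left out. With R273H on P72, 1 member was called (KLF3 in place of KLF6 without a batch term), 0 in batch b2 alone and 0 to 1 with a library left out, and the KLF16 value lay between -1.51 and -0.66 with a library left out. With R72 on R273H the count was 0, but 1 without a filter and 1 with DESeq2, and 0 to 0 with a library left out. With R273H on R72 it was 0, but 1 without a filter (KLF2, adjusted p = 0.0202), and 0 to 0 with a library left out. For batch it was 4, and 2 to 6 with a library left out, where the shares of all genes were 9.21%, and 1.67% to 10.6%. For R72 on R273H those shares were 0.541% without a filter and 0.686% with DESeq2, and for R273H on R72 0.0632% without a filter.

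Signs turned as follows on the log2 scale, and the cause was not tested. Without a batch term, KLF2, KLF4, KLF10 and KLF11 with R273H on P72 were -0.18, -0.12, -0.22 and -0.12, and KLF4, KLF5, KLF7, KLF10, KLF11 and KLF13 with R72 on R273H were 0.35, 0.0781, 0.0127, 0.66, 0.0554 and 0.10. With R72 on R273H, KLF5 and KLF10 were 0.0302 and 0.0234 with library totals and 0.25 and 0.0243 with the replicate block, and KLF3 and KLF5 were -0.0449 and 0.00474 in batch b2 alone. With the replicate block, KLF3 and KLF11 with R273H on R72 were 0.0759 and -0.29. With a library left out, ranges for R72 on R273H that crossed 0 were -0.0410 to 0.20 for KLF3, -0.0494 to 0.0121 for KLF5, -0.0637 to 0.13 for KLF10, -0.28 to 0.20 for KLF13 and -0.46 to 0.38 for KLF16, and for batch -0.19 to 0.0530 for KLF3.

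Of the list genes, 0 were called with R72 on R175H, and 1 with RLE scaling, 1 with library totals, 3 without a filter, 2 with the filter at 10 CPM, 2 with DESeq2, 1 with limma-voom, 1 in batch b2 alone and 0 to 2 with a library left out. Of all genes, 1.13% were called there in the main fit, 2.23% without a filter, 2.56% with the filter at 10 CPM and 0.148% to 1.68% with a library left out. With R72 on R273H it was 0, and 5 without a filter, 5 with DESeq2 and 0 to 1 with a library left out. The shares of all genes there were 0.541% without a filter, 0.686% with DESeq2 and at most 0.037% with a library left out. With R273H on P72 it was 16, and 7 in batch b2 alone and 10 to 18 with a library left out. With R273H on R72 it was 0, and 1 without a filter. For batch it was 11, and 6 with the replicate block and 2 to 12 with a library left out. The shares of all genes for batch were 9.21%, 5.31% with the block and 1.67% to 10.6% with a library left out. For R273H on P72 they were 14.6%, and 7.46% to 16.4% with a library left out, and for R273H on R72 0.0632% without a filter. Of the KLF16 neighbours 1 was called with R273H on P72, and 1 to 2 with a library left out, and for batch 0, and 1 without a filter and 0 to 1 with a library left out.

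Over all genes, R72 on R175H gave 52 higher and 133 lower, but 4 and 2 without a batch term, 15 and 41 with the GC correction, 13 and 68 with the replicate block, and 3 and 21 without R175H R72 replicate 2. Whether the replicate numbers pair the samples was not settled. Same-numbered R175H R72 and R175H P72 libraries had deviations correlated at 0.00, -0.07 and 0.25 over genes. Replicates 1 and 2 did not correlate best with their own number, whereas replicate 4 did. R175H R72 replicate 1 is also of another batch than the rest, which enters these correlations. For R273H on P72 the block gave 842 higher and 934 lower, against 1135 and 1241 without it, and KLF6 stayed called. The R273H R72 group has 1 library, and KLF4, KLF5 and KLF11 had as few as 26, 48 and 44 counts in a library, which limits their precision.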
